A study of Mus musculus with 550 samples.

Results

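Pou5f1, Sox2, Nanog, Sall4 and Utf1, 5 of the 55228 gene names in the count table, were followed through 486 of 550 single cells of mouse embryoid bodies. The 5 were taken by name as core pluripotency factors. Embryoid bodies are aggregates that embryonic stem cells form when the cytokine LIF is withdrawn in low-attachment plates. All cells came from the E14 stem cell line (strain 129/Ola), as wild type (WT) or with a homozygous knockout of Dnmt3a (3AKO) or Dnmt3b (3BKO), the enzymes that set new DNA methylation, and were sorted alive after 3 or 9 days without LIF. Each knockout comprised independent clones in the study, but the labels do not say which cell came from which clone or culture, so each genotype at each day counted as 1 sample and no test between groups was possible. The cells that passed the filter (at least 50000 reads, at least 2000 genes and at most 50% mitochondrial reads) numbered 79 WT, 83 3AKO and 80 3BKO at day 3, and 89 WT, 88 3AKO and 67 3BKO at day 9.

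Pou5f1 (Oct4, a POU-domain factor) and Sox2 (an HMG-box factor) bind DNA side by side at many stem cell enhancers and hold the pluripotent state together with the homeobox factor Nanog. Sall4, a zinc-finger protein, binds many of the same regions and supports Pou5f1 expression, and Utf1 is a chromatin-associated protein whose gene is a classical target of Pou5f1 and Sox2. When stem cells leave the naive state, Nanog is usually lost early, Pou5f1 later, and Sox2 stays on in cells that become neural.

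In GENCODE coordinates on GRCm38, the protein-coding genes lie at chromosome 17, 35506018 to 35510772 (Pou5f1), chromosome 3, 34650405 to 34652461 (Sox2), chromosome 6, 122707489 to 122714633 (Nanog), chromosome 2, 168748332 to 168767943 (Sall4, minus strand) and chromosome 7, 139943789 to 139945112 (Utf1). Pou5f1 shares 317 exon bases with the antisense gene Gm19553 and Sall4 526 with Gm14261, genes to which only 8 and 43 reads were assigned over all kept cells. The annotated pseudogenes Nanog-ps1 and Nanog-ps2 had 6 reads and 1 read. Reads lost because they mapped to several places are not in the table, and their number for Nanog was not tested.

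The promoters of Nanog and Sox2 are shown because the octamer letters ATGCAAA, which POU factors read, stand in both, and both genes were higher in 3BKO than in WT at day 9. Sequences are RefSeq promoters on GRCm38.p6, from 250 bases before to 50 after the transcription start, both on the plus strand. Capitals mark the octamer letters and, in Nanog, also the Sox letters CATTGT, each searched on both strands.
Nanog, chr6:122707239-122707538: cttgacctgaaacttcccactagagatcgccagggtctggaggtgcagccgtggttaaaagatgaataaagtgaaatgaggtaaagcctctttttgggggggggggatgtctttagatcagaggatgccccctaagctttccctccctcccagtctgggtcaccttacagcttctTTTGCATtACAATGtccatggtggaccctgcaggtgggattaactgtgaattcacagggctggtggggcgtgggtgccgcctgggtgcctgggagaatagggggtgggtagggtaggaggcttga
Sox2, chr3:34649745-34650044: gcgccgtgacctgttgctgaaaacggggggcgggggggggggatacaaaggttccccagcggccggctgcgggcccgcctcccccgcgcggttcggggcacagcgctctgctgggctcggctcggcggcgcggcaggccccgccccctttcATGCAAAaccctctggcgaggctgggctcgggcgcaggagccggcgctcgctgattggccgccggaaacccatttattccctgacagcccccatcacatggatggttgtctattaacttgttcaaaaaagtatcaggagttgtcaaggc
In Nanog both motifs read on the minus strand and begin 75 and 67 bases before the start, with 1 base between them. In Sox2 the octamer letters read on the plus strand from 99 bases before the start. Over 32851 promoters of 27025 genes, 4.63% held the octamer letters, 12.6% the Sox letters, and 4 (0.0122%) both within 3 bases. Of these 4 promoters, Nanog accounts for 2 that overlap each other. Utf1 and the promoter at the main start of Pou5f1 held neither motif in this window. A second Pou5f1 promoter held the Sox letters. Sall4 was not among the promoter sequences used.

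A library here means the kept cells of 1 genotype, day and library batch (1 or 2). Its reads were added up per gene and given as CPM, the read count scaled to the library's total. The intervals in the plot of summed levels cover counting error only. Depth of the kept cells ran from 54720 to 1450202 reads with a median of 263902, and batch 2 of 3BKO at day 9 was the deepest library with a median of 692321. Library batches differed for the members themselves. In WT at day 3, where both batches carry the same label, batch 2 had log2 ratios to batch 1 of -1.14 for Pou5f1, -1.15 for Utf1 and -0.88 for Sall4, against -0.28 for Sox2 and -0.15 for Nanog. Therefore, every ratio was computed within each batch as well, and a member was called only when it passed 1.5-fold in the same direction in both. At day 9 each genotype filled a plate of its own, so its batches shared that plate and are not independent samples. The batch 1 cells of each genotype at day 3 also lay on different plates. No plate held cells of both days, so plate and day cannot be told apart.

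The targeted genes checked the labels. Among day 9 cells, summed Dnmt3a was 166 CPM (WT), 25.2 (3AKO) and 63.03 (3BKO), and summed Dnmt3b was 167, 252 and 16.4. At day 3, batch 1 went with the labels, with 25.8 CPM of Dnmt3a in 3AKO (455 in WT) and 167 CPM of Dnmt3b in 3BKO (600 in WT). Dnmt3b was also below WT in 3AKO of that batch (261 CPM), and 70.4% of the 3BKO cells had a Dnmt3b read. In batch 2, however, the library labelled 3AKO had 335 CPM of Dnmt3a and the library labelled 3BKO had 12.8. Their Dnmt3b was 85.1 and 185 CPM (523 in WT). The library labelled 3AKO shared its plate with 3BKO of batch 1 (587 CPM of Dnmt3a). The library labelled 3BKO shared its plate with 3AKO of batch 1. The day 3 batch 2 mutant libraries are thus in doubt, so their values are given by label and no direction is drawn from them.

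**Figure D1:**
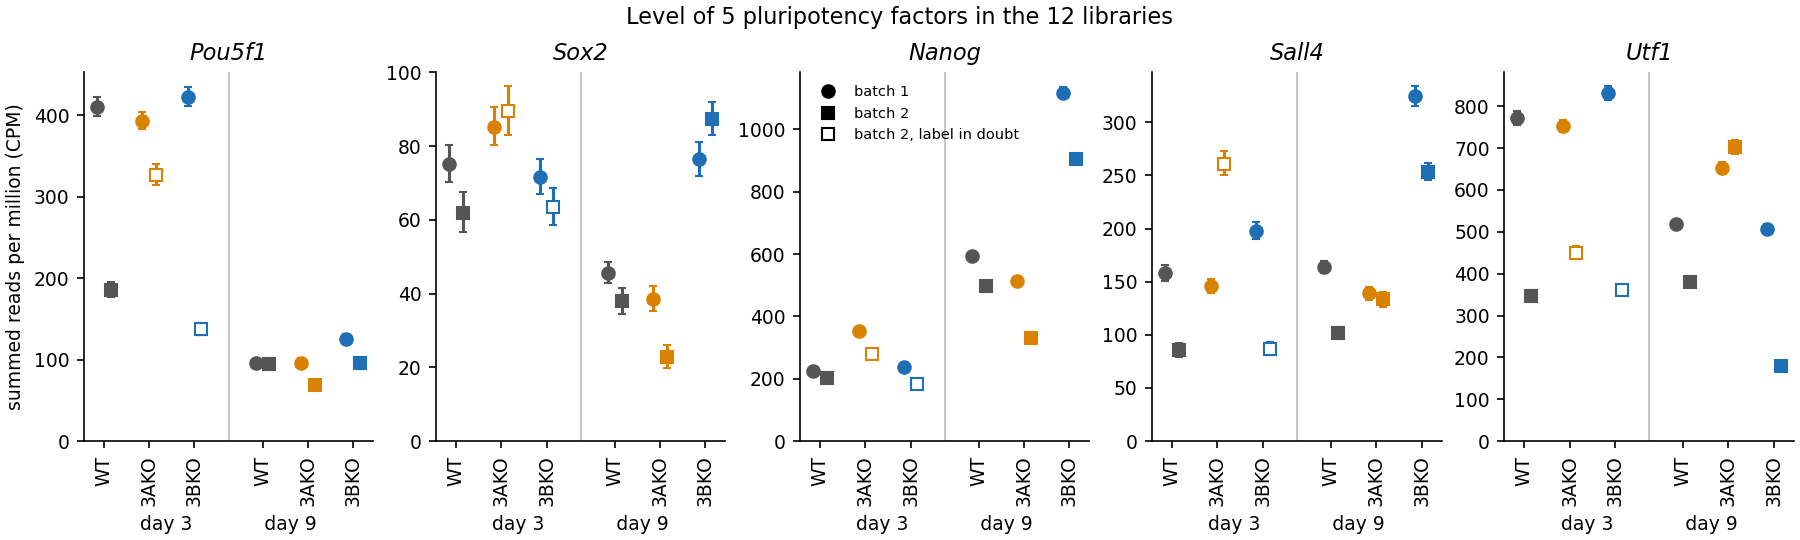
Summed CPM of the 5 factors (vertical axis, linear, a scale of its own for each gene) in the 12 libraries of WT, 3AKO and 3BKO at day 3 and day 9, with exact 95% Poisson intervals for counting error. Circles are batch 1, squares batch 2, and open squares the 2 libraries whose label is in doubt. Pou5f1 lies lower at day 9 than at day 3, Nanog is highest in the 3BKO libraries of day 9 (1118 and 906 CPM), and Utf1 differs widely between the batches of 3BKO.

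Between day 3 and day 9 the factors went separate ways in WT. Pou5f1 was lower at day 9 in both batches, Sox2 was lower, Nanog was higher, and Sall4 and Utf1 stayed within 1.5-fold over the summed cells. Pou5f1 fell from 411 and 186 CPM (batches 1 and 2) to 96.1 and 95.3, a log2 ratio of -1.70 with batch values of -2.08 and -0.96. Both day 9 libraries lay below both day 3 libraries, and 6 of 89 day 9 cells (6.74%, exact 95% interval 2.51 to 14.1%) lay above the day 3 median of their batch. Sox2 fell from 75.1 and 61.9 CPM to 45.6 and 37.98, with a log2 ratio of -0.68 (-0.71 and -0.69). Its 2 libraries at day 9 were also both below those of day 3, by a smaller step than Pou5f1. This call of Sox2 was lost with thinned cells, where the batch 1 log2 ratio was -0.52, and under 3 other settings.

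Nanog went the other way. It rose from 226 and 203 CPM to 594 and 498, a log2 ratio of 1.37 (1.39 and 1.29 by batch), and 60 of 89 day 9 cells (67.4%) lay above the day 3 median. Sall4 had 158 and 85.4 CPM at day 3 and 164 and 101 at day 9 (log2 ratio 0.16), so its libraries overlapped between the days. Utf1 had 771 and 347 CPM at day 3 and 519 and 380 at day 9, with a log2 ratio of -0.57 in batch 1 and 0.13 in batch 2. Of all 10162 genes detected in this comparison (in each batch, a read in 20% or more of the cells at 1 of the 2 days), 15.2% were called higher and 6.8% lower, with a median log2 ratio of 0.19. Of the 5 members, 1 was called higher and 2 lower. The ratio of Pou5f1 lay above 1.03% of the detected genes and that of Nanog above 95.8%.

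The mutants could be followed over time in batch 1 alone. Pou5f1 had log2 ratios of day 9 to day 3 of -2.02 in 3AKO (394 to 96.2 CPM) and -1.74 in 3BKO (423 to 126 CPM), beside -2.08 in WT. Its lower level at day 9 was thus present in every genotype, with single libraries behind each value and day not separable from plate. Sox2 had -1.13 in 3AKO and 0.09 in 3BKO (71.7 to 76.4 CPM). Nanog had 0.55 in 3AKO, where day 3 was already at 352 CPM, and 2.23 in 3BKO, where it went from 237 to 1118 CPM. Sall4 had -0.07 and 0.71, and Utf1 -0.20 and -0.71. A single cell held 27.8% of the Sall4 reads of 3BKO at day 3. Without the top cell of each library, Sall4 in 3BKO went from 149 to 305 CPM. In 3BKO, Nanog and Sall4 were past 1.5-fold upwards with Pou5f1 and Utf1 past it downwards, in batch 1 alone. The share of all detected genes past 1.5-fold between these libraries was not computed, so no background stands beside this (median log2 ratio 0.04).

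Levels of different genes were compared only per kilobase of exon. Among WT cells of day 3 the order was Utf1 (480 CPM per kb), Pou5f1 (140), Nanog (96.5), Sox2 (33.8) and Sall4 (22.9). In batch 1 of the mutants at day 3 the first 3 ranks were the same. Sox2 (41.5 CPM per kb) was above Sall4 (26.3) in 3AKO, and both were close in 3BKO (34.8 and 35.8). A single cell held 27.8% of these 3BKO Sall4 reads, however, and without it Sall4 fell from 198 to 149 CPM. At day 9 the order in WT was Utf1 (384 CPM per kb), Nanog (250), Pou5f1 (42.6), Sall4 (25.7) and Sox2 (20.9), and 3AKO had the same order. In 3BKO at day 9 Nanog came first with 448 CPM per kb, above Utf1 with 270, and Sall4 (51.8) and Pou5f1 (48.95) lay next to each other above Sox2 (40.02).

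At day 9 the question was how each knockout differed from WT. In 3BKO, Sox2, Nanog and Sall4 were higher than in WT in both batches, Pou5f1 was close to WT, and Utf1 was lower in 1 batch. Sall4 had 325 and 253 CPM in 3BKO (batches 1 and 2) against 164 and 101 in WT, a log2 ratio of 1.00 (0.98 and 1.31). Sox2 had 76.4 and 87.4 CPM against 45.6 and 37.98, a log2 ratio of 0.92 (0.73 and 1.18). For both genes the 3BKO libraries lay above the WT libraries without overlap. Nanog had 1118 and 906 CPM against 594 and 498 (log2 ratio 0.84, 0.91 and 0.86 by batch), also without overlap.

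Pou5f1 had 126 and 96.4 CPM in 3BKO against 96.1 and 95.3 in WT, a log2 ratio of 0.20 (0.39 and 0.02). The level of Pou5f1 thus differed little while its usual partners were about 1.8-fold to 2.0-fold higher. Utf1 had 506 and 180 CPM in 3BKO against 519 and 380 in WT, a log2 ratio of -0.51 (-0.03 and -1.08). The lower Utf1 rested on batch 2, in which 21 3BKO cells were kept. Over 9235 detected genes, 7.51% were called higher and 12.5% lower in this comparison, with a median log2 ratio of -0.08. Of the 5 members, 3 were called higher and 0 lower. Their ratios lay above 92.2% (Sox2), 90.7% (Nanog) and 93.4% (Sall4) of all detected genes.

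The higher levels were spread over the cells. Of 67 3BKO cells, 60 (89.6%, exact 95% interval 79.7 to 95.7%) lay above the WT median of Sall4 in their batch, 55 (82.1%) above that of Nanog and 50 (74.6%, 62.5 to 84.5%) above that of Sox2. For Pou5f1 this was 35 cells (52.2%) and for Utf1 24 (35.8%). Leaving out the cell with the most reads of each gene in each group kept the 3 calls. The call of Sox2 was lost when cells were thinned to 50000 reads or weighted equally, since its batch 1 log2 ratio was then 0.55 or 0.53. Cells of 1 group share their plate and culture, and the intervals cover counting of cells only.

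In 3AKO at day 9 no member was called in either direction, where 3.65% of 9201 detected genes were called higher and 5.96% lower (median log2 ratio -0.10). Sox2 had 38.6 and 22.8 CPM in 3AKO against 45.6 and 37.98 in WT (log2 ratio -0.41, -0.24 and -0.71 by batch). Nanog had 514 and 330 CPM against 594 and 498 (-0.36, -0.21 and -0.59). Utf1 had 654 and 702 CPM against 519 and 380, a log2 ratio of 0.52 (0.33 and 0.89), and lay above WT in both batches without passing 1.5-fold in batch 1. Pou5f1 had -0.17 (0.00 and -0.45) and Sall4 -0.06, with opposite signs in the batches (-0.24 and 0.39).

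The mutants were also set against each other. The log2 ratios of 3BKO to 3AKO were 1.34 for Sox2, 1.20 for Nanog and 1.06 for Sall4, all called higher, where 11.2% of detected genes were called higher and 11.5% lower. Utf1 had -1.02, with -0.37 in batch 1 and -1.96 in batch 2, and was not called. Pou5f1 had 0.37. Both comparisons with WT use the same WT cells.

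**Figure D2:**
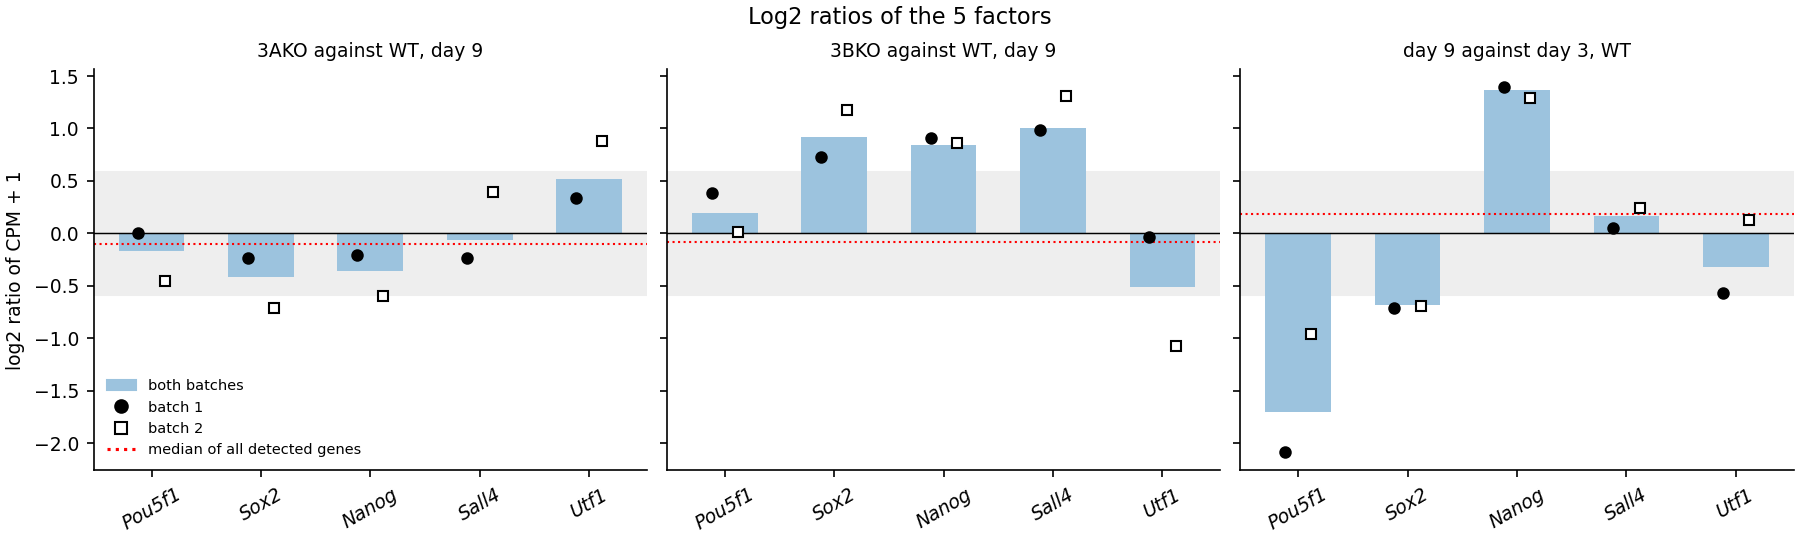
Log2 ratio of CPM + 1 for the 5 factors in 3AKO against WT at day 9, 3BKO against WT at day 9 and day 9 against day 3 in WT. Bars are both batches summed, circles batch 1, squares batch 2, the grey band marks 1.5-fold either way and the dotted line the median of all detected genes. In 3BKO, Sox2, Nanog and Sall4 lie above the band in both batches, and in WT over time Nanog and Pou5f1 lie on opposite sides of it.

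At day 3 the comparison with WT rests on batch 1. Log2 ratios to WT in 3BKO were 0.04 for Pou5f1, -0.07 for Sox2, 0.07 for Nanog, 0.32 for Sall4 and 0.11 for Utf1. A single cell held 27.8% of the Sall4 reads of 3BKO. Without the top cell of each library, Sall4 had 149 CPM in 3BKO and 154 in WT. The log2 ratios in 3AKO were -0.06, 0.18, 0.64, -0.12 and -0.03 in the same order of genes. Nanog in 3AKO was thus the 1 value past 1.5-fold (352 CPM against 226 in WT). Its median cell, however, had 199 CPM in 3AKO and 217 in WT, with upper quartiles of 473 and 305. The share of all detected genes past 1.5-fold in batch 1 was not computed. Their median log2 ratio was 0.006 in 3AKO and 0.007 in 3BKO. In batch 2, the library labelled 3AKO had 327 CPM of Pou5f1, 89.5 of Sox2, 278 of Nanog, 261 of Sall4 and 450 of Utf1. A single cell held 43.7% of its Sall4 reads and a single cell 45.2% of its Sox2 reads, and without the top cell of each gene the levels were 154 (Sall4) and 51.6 (Sox2) CPM. The library labelled 3BKO had 137 CPM of Pou5f1, 63.6 of Sox2, 182 of Nanog, 86.9 of Sall4 and 361 of Utf1.

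Single cells at day 9 showed different shapes for the 5 factors. Sall4 had the lowest CV (coefficient of variation, SD over mean across cells) of the 5 in each genotype. In 3BKO its lowest, median and highest cell values were 88.3, 269 and 879 CPM, so it had reads in all 67 cells, and its CV was 0.486. In WT the Sall4 values were 0, 138 and 489 CPM with a CV of 0.688, and in 3AKO 0, 119 and 553 CPM with a CV of 0.756. The CV of a single group has no replicate check, and the batch 1 and batch 2 values were 0.509 and 0.366 in 3BKO against 0.626 and 0.743 in WT.

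Sox2 had the highest CV of the 5 in WT and 3AKO. After each cell was thinned to 50000 reads, which sets all cells to one depth, it had a read in 55.1% of the WT cells (exact 95% interval 44.1 to 65.6%). The share was 55.7% for 3AKO and 85.1% for 3BKO (74.3 to 92.6%). Without thinning these shares were 70.8%, 71.6% and 91.04%. The median cell had 20.1 (WT), 18.3 (3AKO) and 74.1 CPM (3BKO) of Sox2, and the CV was 1.53, 1.68 and 0.850. At day 3 the WT share was 87.3% thinned.

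Nanog ranged widely. Its highest day 9 cell had 3236 (WT), 4798 (3AKO) and 6865 CPM (3BKO), beside cells with no read in all 3 genotypes, and the median cells had 372, 305 and 820 CPM. In batch 2 of WT a single cell held 28.7% of the Nanog reads. Thinned, the share of cells with a Nanog read was 88.8% (WT), 87.5% (3AKO) and 98.5% (3BKO). Pou5f1 had a read in 79.8%, 77.3% and 82.1%, with overlapping intervals. Utf1 had one in 89.9%, 85.2% and 89.6%.

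**Figure D3:**
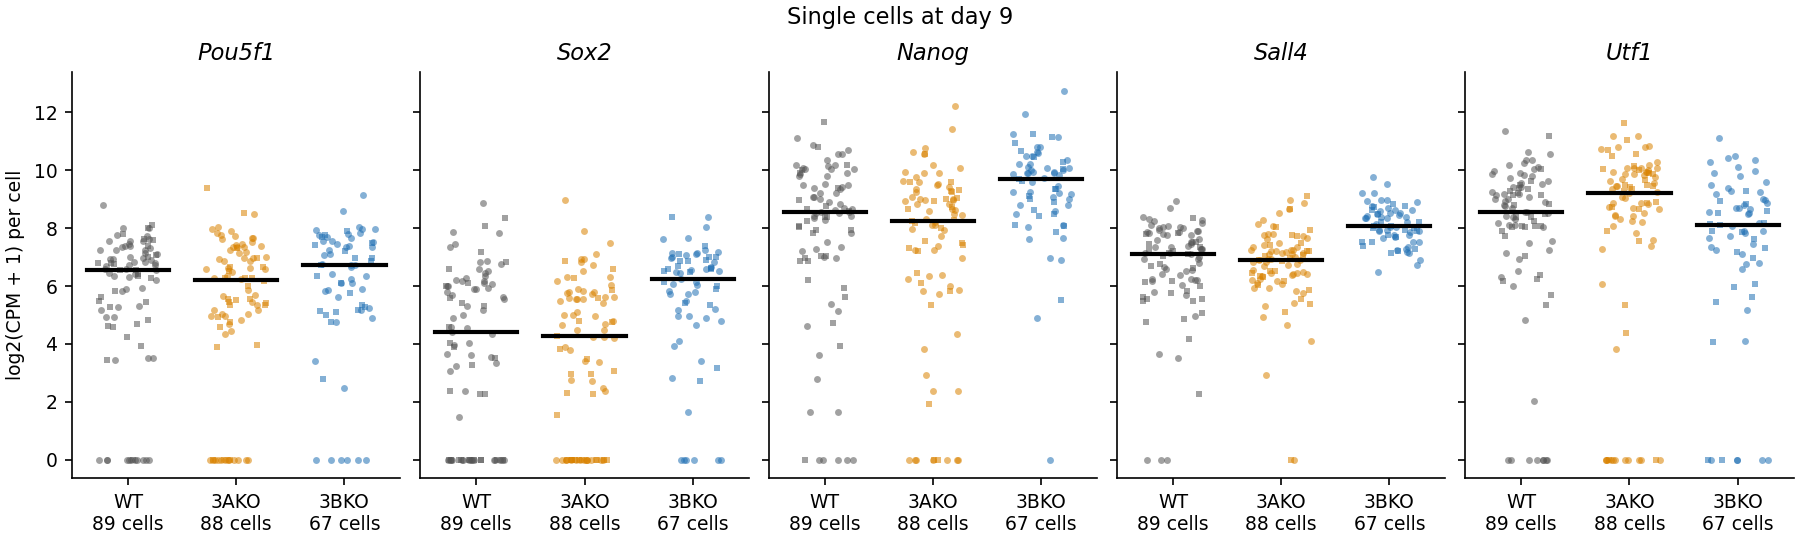
Log2(CPM + 1) of the 5 factors in each kept cell at day 9, by genotype, with circles for batch 1, squares for batch 2 and a bar at the median. Points at 0 are cells with no read. Sall4 lies in a narrow upper band in 3BKO, where every cell is at 88.3 CPM or more, and Sox2 has fewer cells at 0 in 3BKO than in WT or 3AKO.

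Cells with all 5 factors were frequent at day 3 and fewer at day 9. Thinned to 50000 reads, all 5 had a read in 82.3% of WT cells at day 3 (72.1 to 89.96%) and in 42.7% at day 9 (32.3 to 53.6%). In 3AKO this was 68.97% at day 3 in batch 1 and 39.8% at day 9, and in 3BKO 79.6% in batch 1 and 61.2% (48.5 to 72.9%). By batch, 3BKO at day 9 had 52.2% and 80.95%, against 40% and 48.3% in WT. Unthinned, the day 9 shares were 60.7%, 56.8% and 76.1% in the order WT, 3AKO, 3BKO. Cells with reads of 2 or fewer factors, without thinning, numbered 6 in WT and 9 in 3AKO at day 9, and 0 of 67 in 3BKO, which allows a share of up to 4.48%.

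Cells without a Pou5f1 read often lacked other factors too in WT and 3AKO. There were 12 at day 9 in WT, 15 in 3AKO and 6 in 3BKO. Of the 12 WT cells, 4 also lacked Nanog, 5 lacked Utf1 and 6 lacked Sox2. Of the 15 3AKO cells, 7 lacked Nanog, 10 lacked Utf1 and 7 lacked Sox2. Of the 6 3BKO cells none lacked Nanog or Sall4, 3 lacked Utf1 and 1 lacked Sox2. In WT cells with a Pou5f1 read, by comparison, 2 of 77 lacked Nanog and 20 of 77 lacked Sox2. Summed over 16 mesoderm and endoderm markers the day 9 levels were 132 CPM (WT), 104 (3AKO) and 63.9 (3BKO), but 1 cell held 58.02% of these reads in WT and 1 cell 53.96% in 3AKO. Without the cell with the most reads in each group, a choice made after seeing the data, the levels were 56.03, 49.2 and 58.5 CPM, and the order turned. Of the 16, Mixl1 was at 0 in WT and 7, Mixl1 included, were at 0 in 3BKO, and these 7 had at most 2.61 CPM in WT. Over 14 ectoderm markers the levels were 260, 306 and 205 CPM, and 240, 271 and 188 without the top cell. Pou3f2 and Neurog2 were at 0 in WT and in 3BKO, where 5 further ectoderm markers were at 0. Over 12 extraembryonic markers they were 559, 774 and 369 CPM, with 65.5% of the 3AKO reads and 43.2% of the WT reads in 1 cell each, and 320, 270 and 351 CPM without the top cell. Cdx2 was at 0 in all 3 genotypes. The part of such cells in the members' levels was not tested.

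**Figure D4:**
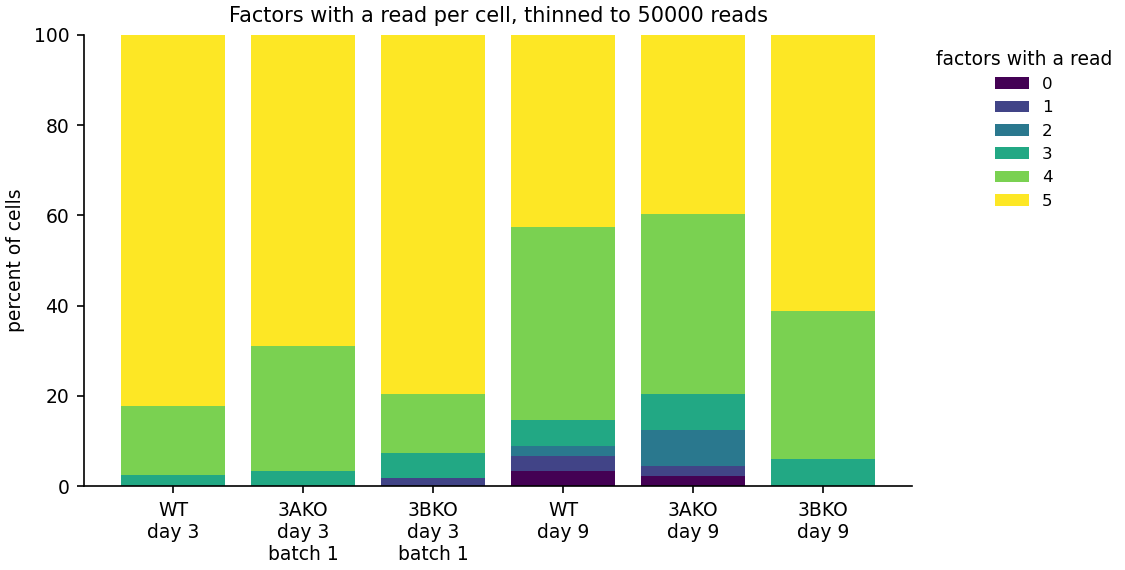
Percent of cells (vertical axis) by the number of the 5 factors with a read, from 0 to 5, after each cell was thinned to 50000 reads. Mutants at day 3 are batch 1 alone. The share with all 5 is 82.3% in WT at day 3 and 42.7% at day 9, and at day 9 no kept 3BKO cell has fewer than 3.

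Correlations across cells were computed for the 10 pairs of factors on log2(CPM + 1), with each batch centred on its own mean. The cells of a group share plate, culture and depth range, so the values are descriptions. In WT at day 3 (79 cells) the median of the 10 pairs was r = 0.147, and the highest pair was Sox2 and Nanog (0.446, or 0.233 by Spearman's rho). Pou5f1 and Sox2, the pair that binds together, had the lowest value (-0.172). In batch 1 at day 3 the median was -0.043 in 3AKO (58 cells), where Nanog and Utf1 had -0.413. It was 0.431 in 3BKO (54 cells), with 0.719 for Pou5f1 and Utf1. A single 3BKO cell with reads of Sall4 alone set much of that median over the 10 pairs. The median was 0.178 without this cell and 0.009 by Spearman's rho.

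At day 9 all 10 pairs were above 0 in WT (89 cells, median 0.400) and in 3AKO (88 cells, median 0.329), and 4 of 10 in 3BKO (67 cells, median -0.121). The highest pairs were Nanog and Sall4 in WT (0.509) and Pou5f1 with Utf1 (0.721) and with Nanog (0.691) in 3AKO. Nanog and Sall4 in WT had 0.6004 in batch 1 and 0.119 in batch 2. Batch 2 alone had 9 of 10 pairs above 0 in WT (Sall4 and Utf1 -0.091) and in 3AKO (Sox2 and Nanog -0.053). In 3BKO Pou5f1 and Utf1 had 0.402, and Sall4 had -0.263 with Pou5f1 and -0.277 with Utf1. These 3 values came from batch 1 (0.475, -0.307 and -0.344), and the 21 cells of batch 2 had 0.073, 0.0055 and -0.033. Pairs with Sox2 in 3AKO lay between 0.046 (Nanog) and 0.186 (Pou5f1, 0.131 and 0.352 by batch). Spearman's rho of Sox2 and Sall4 was -0.046 there. In 3BKO Sox2 had 0.127 with Sall4, and -0.160 with Pou5f1, -0.166 with Nanog and -0.249 with Utf1. For scale, the median correlation of the members with all other genes found in at least 50% of the cells was 0.050 (WT), 0.068 (3AKO) and 0.0098 (3BKO). The lowest median was that of 3BKO in both batches, with values of 0.440 and 0.218 in WT, 0.241 and 0.502 in 3AKO, and -0.099 and -0.014 in 3BKO. With no filter on cells, which adds back the cells that failed it (67 of 93 3BKO cells had passed), the 3BKO median was 0.672.

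The medians of WT and 3AKO at day 9 were much smaller without the cells that had few factors. Leaving out the cells in which fewer than 3 of the 5 had a read, a choice made after seeing the data and on the same values, gave a median of 0.061 in WT (83 cells), 0.042 in 3AKO (79 cells) and still -0.121 in 3BKO, which had no such cell. Across cells at day 9, the correlation of a member with log depth lay between -0.191 and 0.105 in WT and 3AKO with batches centred. Single batches went from -0.481 (Sox2, 3AKO batch 1) to 0.423 (Sox2, 3AKO batch 2). With the log number of detected genes and batches centred, Pou5f1 had 0.381 in WT and 0.321 in 3AKO. The other members lay between -0.211 and 0.203.

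**Figure D5:**
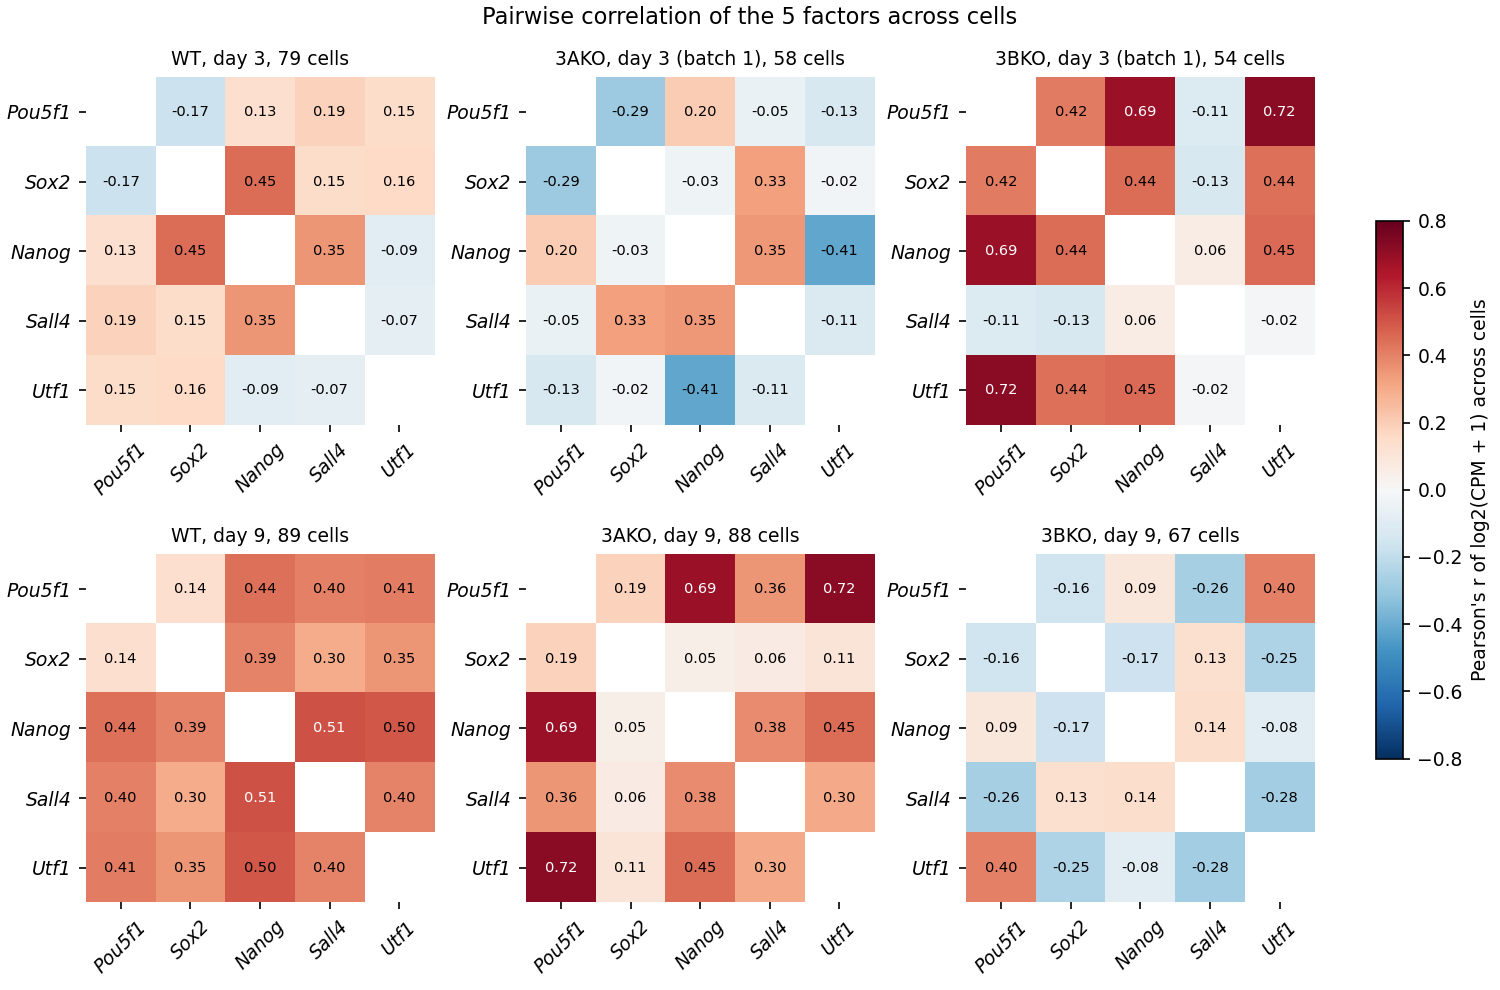
Pearson's r of log2(CPM + 1) across cells for each pair of the 5 factors, by genotype and day, on a colour scale from -0.8 (blue) to 0.8 (red). Batches were centred on their own means, and the mutants at day 3 are batch 1 alone. At day 9 every pair is above 0 in WT and 3AKO and 4 of 10 pairs are in 3BKO, and the 3BKO panel of day 3 is drawn mainly by 1 cell.

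The genes most like each factor across cells, by mean r within the 10 undoubted libraries over 5232 genes and with the 5 members set aside, include known pluripotency genes and others. For Pou5f1 these were Slc7a3 (0.429), a cationic amino acid transporter, Chchd10 (0.377), a mitochondrial protein, and Csrp2 (0.363), a LIM-domain protein. Utf1 (0.380) and Nanog (0.374) ranked among its first partners as well. For Nanog they were Slc7a3 (0.459), Lefty2 (0.448), a Nodal antagonist, and Dppa5a (0.433), a pluripotency-associated RNA-binding protein. For Sox2 they were Rif1 (0.291), Trim28 (0.262) and Mybl2 (0.244), and for Sall4 Slc2a3 (0.334), Tdgf1 (0.325) and Trim28 (0.287), with Nanog (0.292) above Trim28. Rif1 acts in replication timing, Trim28 is a corepressor, Mybl2 a cell cycle factor, Slc2a3 a glucose transporter and Tdgf1 the Nodal co-receptor Cripto. For Utf1 they were Mkrn1 (0.404), an E3 ubiquitin ligase, Tdgf1 (0.370) and Slc7a3 (0.368), with Pou5f1 (0.380) above the last 2. Single libraries ranged widely, as from 0.017 to 0.705 for Pou5f1 and Slc7a3.

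Across the 10 undoubted libraries, which share batch and day, the levels most like a factor's own belonged to other genes: Lasp1 for Pou5f1 (r = 0.980), Nfe2l1 for Sox2 (0.951), Eif1 for Nanog (0.971), Sertad1 for Sall4 (0.985) and Naca for Utf1 (0.973). Between members the values were 0.660 for Pou5f1 and Sox2, 0.648 for Nanog and Sall4, and -0.594 for Pou5f1 and Nanog. These ranks compare 9970 genes over 10 points.

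Other genes of the network at day 9 were taken from lists written from general knowledge. Of 12 genes known as shared targets of Pou5f1 and Sox2, 6 were called higher in 3BKO than in WT and 0 lower, beside 7.51% and 12.5% of all detected genes (median log2 ratio 0.67, all detected genes -0.08). Among them were Dppa2, a germ cell and stem cell chromatin factor (301 CPM against 105, 1.51), Spp1, the secreted protein osteopontin (2987 against 1076, 1.47), Trp53inp1, a stress-induced autophagy factor (159 against 62.4, 1.34), and Zfp42, the naive-state marker Rex1 (2269 against 963, 1.24). Spp1 shares 309 exon bases with an unnamed gene model. In 3AKO, where 3.65% of all detected genes were called higher and 5.96% lower, 0 of the 12 were called higher and 1 lower, Zfp42 (461 CPM, -1.06), with a median of -0.14.

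Of 32 partner and co-factor genes, 31 were detected in the 3BKO comparison, of which 5 were called higher and 2 lower (median 0.38). Over all detected genes 7.51% were called higher and 12.5% lower. The naive-state factors Tbx3 (147 CPM against 25.3 in WT, log2 ratio 2.49), Klf5 (385 against 79.3, 2.26) and Klf4 (51.3 against 11.5, 2.07) moved most, and Mta1, a subunit of the NuRD repressor, was lower (3.10 against 9.79, -1.40). Tbx3 shares 115 exon bases with Tbx3os1 on the other strand. In 3AKO, 30 were detected, with 0 higher and 2 lower, beside 3.65% and 5.96% of all detected genes. The share called lower was thus near that of all detected genes. The 2 were Prdm14 (-0.96), a repressor that guards the naive state, and Tcf7l1 (-0.98), a Wnt pathway repressor.

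Relatives of the members moved in both directions. Of 17 genes from the Sox, Pou and Sall families, 7 were detected, with 1 called higher and 3 lower in 3BKO (median -1.005, beside 7.51% and 12.5% of all detected genes). Sall2 had 0.693 CPM in 3BKO against 43.2 in WT (log2 ratio -4.71), and Sall3 5.48 against 12.004 (-1.005), while Sall4 was higher. Sox11, a neural Sox factor, had 3.27 against 16.5 (-2.04), and Sox15, a stem cell relative of Sox2, had 72.6 against 29.1 (1.29). Of 10 primed epiblast genes 6 were detected, with 2 called higher and 3 lower, among them the growth factor Fgf5 (2.11 against 61.1 CPM, -4.32), the kinase Pim2 (14.8 against 409, -4.69), the neuropeptide precursor Trh (201 against 610, -1.60) and the ligand Nodal (302 against 107, 1.49). In 3AKO neither the 7 detected relatives nor the 6 detected primed genes held a called gene, beside 3.65% and 5.96% of all detected genes.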

How the data were processed

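Single cells were sorted into plates and their RNA sequenced by a modified Smart-seq2 protocol without molecular identifiers. Per the labels, the authors used FastQC 0.11.2, Trim Galore 0.5.0, STAR 2.7.1a and featureCounts 1.6.1 on mm10 (GRCm38.p6). They counted uniquely mapped reads over exons per gene name (GENCODE M23), and the strand setting is not given in the sources used here. The deposited table holds raw counts, so a gene's count includes duplicate reads. A further 26 columns match no sample and were not used.

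From the counts, cells were kept as stated in the results, reads were summed per genotype, day and library batch, and CPM were formed over all genes. No 2 kept cells had identical counts. Log2 ratios used CPM + 1. Without labelled replicates, edgeR's and other count tests were not run. Intervals are exact Poisson (sums) or Clopper-Pearson (shares) at 95% and cover counting error only, and the limit for a share of 0 is 3 counts of the total. Thinning drew 50000 reads per cell. The steps were tested on simulated data. Named genes were the 3 most like each member, and from each list up to 4 with the largest log2 ratio among those called. Alternatives changed the cell filter, batch, weighting, depth, denominator, scaling (TMM of edgeR 4.0.16, size factors of DESeq2 1.42.0) and pseudocount. The members and lists were chosen with earlier results of these data known. Gene positions came from GENCODE vM21, which holds 97.0% of the table's gene names. Python 3.11.15, numpy and scipy were used.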

Additional observations from a re-analysis of the deposited data

Results flagged for a closer look

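Sox2, Nanog and Utf1 had log2 ratios to WT at day 9 of opposite sign in the 2 mutants, in both library batches. The ratio of 3BKO exceeded that of 3AKO by 1.34 for Sox2 and by 1.20 for Nanog, and the difference was -1.02 for Utf1. For Utf1 the 3BKO value of batch 1 was close to 0 (-0.03) and turned to 0.01 with TMM factors and to 0.04 with median-ratio size factors, so the opposite sign in both batches does not hold for it under these scalings. These differences were not tested, since the labels tell no replicates apart, and both mutants were compared with the same WT cells. Plate and genotype cannot be told apart at day 9, because each genotype filled a plate of its own.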

How the results depend on the processing

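Each comparison was repeated under 13 other settings. Nanog and Sall4 were called higher in 3BKO than in WT, and Pou5f1 lower and Nanog higher at day 9 in WT, under all 10 that recompute both batches at 1.5-fold. Sox2 lost its call against WT in 3BKO under thinning and equal weighting of cells. In WT over time the count called lower went from 2 to 1 (Sox2 lost) under the stricter cell filter, the mean of single-cell CPM, thinning and a pseudocount of 10 CPM, and to 0 at 2-fold. At 2-fold, 0 members were called higher in 3BKO against WT and 1 against 3AKO. In batch 2 alone, 1 member was higher and 2 lower in 3AKO against WT, and 1 was lower in 3BKO against WT and 1 against 3AKO. The shares of all detected genes past 2-fold, or past 1.5-fold in batch 2 alone, were not computed. These counts therefore have no background and no result about the members is read from them. TMM factors changed no call, and moved the median of all detected genes from 0.19 to 0.03 in WT over time. No called ratio changed sign. 

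The median pair correlation moved with the cells included. With no cell filter it was 0.565 in WT and 0.470 in 3AKO at day 3, 0.275 in 3BKO at day 3 and 0.672 in 3BKO at day 9. In 3BKO at day 3 it was 0.00934 by Spearman's rho, 0.254 thinned, 0.158 with a pseudocount of 10 CPM and 0.178 without cells in which fewer than 3 members had a read. Without such cells it was 0.0607 in WT and 0.0422 in 3AKO at day 9. In WT at day 9 it was 0.239 by Spearman's rho and 0.218 in batch 2 alone, and in 3BKO -0.0464 and -0.0137. The causes of these shifts were not tested. No paired analysis was possible because the labels number no replicates of a group. With each group a single sample, the values carry counting error only, and the depth limits low genes such as Sox2 in single cells.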
